A study of Saccharomyces cerevisiae with 2 samples.

Results

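Chromosome 1 is the shortest of the 16 nuclear chromosomes of the budding yeast Saccharomyces cerevisiae. Its tags in 2 maps of mononucleosomal DNA were taken as every deposited row of that chromosome, shifted by 73 bp into the fragment, and assigned to bins of 1 kb. This gave 231 bins of the 12041 nuclear bins, and 199 of the 231 held at least 20 tags over both libraries. Bins entered by position alone, whatever their level. The starvation library came from cells that spent the final 80 minutes in 0 mM phosphate, and the high phosphate library from cells given 10 mM phosphate for the same time. All cells had first spent 3 hours without phosphate, and all carried the alleles PHO4-MYC::TRP1 and CBF1-3HA::LEU2. With these the phosphate regulator Pho4 carries a MYC tag and Cbf1, another factor that binds DNA, an HA tag. There was 1 library per condition, so no difference between conditions has a replicate check and no p-value is given. All intervals are 95% intervals that cover counting error only. They are exact binomial intervals, except that differences between an end and the interior carry an interval of the odds ratio. The samples are also labelled as sonicated, a step absent from their protocols.

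In a nucleosome, DNA is wrapped around a core of histone proteins, and micrococcal nuclease cuts the linker DNA between cores more readily than the wrapped DNA. Sequencing the fragments that remain shows where nucleosomes sit and how densely a region was recovered. In yeast, nucleosomes form regular arrays over genes, and DNA near chromosome ends is packaged with silencing proteins. Chromosome 1 holds the fewest genes of the nuclear chromosomes in the RefSeq table of assembly R64, 101 in all, 94 of them protein-coding and 4 tRNA genes. In the order of that table the outermost gene on the left is PAU8, of a large family of subtelomeric genes, and FLO9, which encodes a cell-surface flocculation protein, lies further in. On the right the table lists FLO1, a close relative of FLO9, and as the last gene PHO11, which encodes a secreted acid phosphatase and is a target of Pho4. The tags lie on the October 2003 build (sacCer1), per the labels. No annotation of that build was used here, so no bin is tied to a gene.

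Chromosome 1 took more of the starvation library than of the high phosphate library, and the gap was wider than on any of the other 15 nuclear chromosomes. It held 19673 of 1001229 nuclear tags in starvation, which is 1.96%, and 44205 of 2598022 in high phosphate, which is 1.70%. Scaled to nuclear tags, starvation stood 1.15-fold higher, a log2 ratio of 0.21 (0.18 to 0.23). The next in order was chromosome 3, with a log2 ratio of 0.17 (0.15 to 0.19), so the intervals of these neighbours in the order overlap. Chromosome 6, the second shortest, had 0.099 (0.077 to 0.12), which lies below the interval of chromosome 1. The other 15 chromosomes together had a log2 ratio of -0.0039.

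The typical bin of chromosome 1 was slightly lower in starvation, yet higher than the typical bin of most other chromosomes. The median of its 199 usable bins had a log2 ratio of -0.079, against -0.23 over the bins of the other 15 chromosomes together. It was second among the chromosomes behind the -0.055 of chromosome 5, and the lowest was -0.30 on chromosome 11. The median bin was below 0 on each of the 16 chromosomes, so a whole-chromosome ratio above 0 with a median bin below 0 also occurred on chromosomes 3, 5, 6, 8, 9, 10 and 14. On chromosome 1, 96 bins (48.2%) were above 0, the largest share of the 16, and 39.4% of the bins elsewhere were. The 29 bins that were at least 2-fold higher in starvation held 31.4% of its starvation tags and 14.4% of its high phosphate tags.

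**Figure D1:**
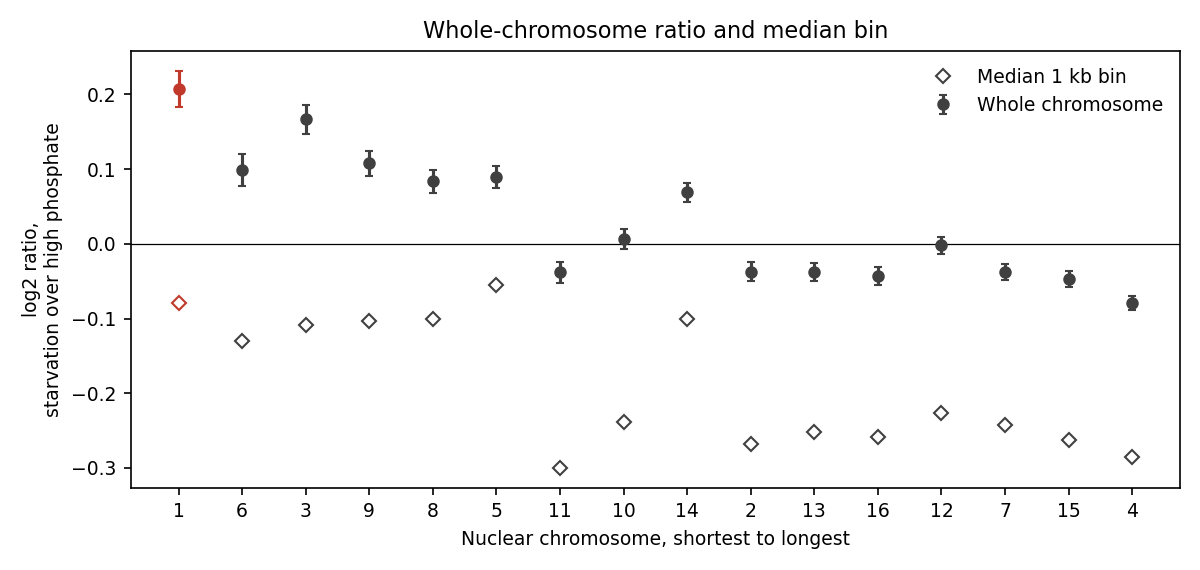
Log2 ratio of starvation over high phosphate, scaled to nuclear tags, for each nuclear chromosome from the shortest to the longest. Filled circles give the whole chromosome with its 95% exact interval for counting error, open diamonds the median 1 kb bin; chromosome 1 (red) has a whole-chromosome value of 0.21 and a median bin of -0.079.

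Bins past 2-fold leaned towards starvation on chromosome 1. Of its 199 usable bins, 29 (14.6%) were at least 2-fold higher in starvation, where 6.46% of all nuclear bins were. Only 8 (4.02%) were at least 2-fold lower, against a nuclear background of 8.82%. With the high phosphate library thinned to the depth of starvation there were 13 lower bins (6.60%). In bins of 500 bp, 64 (16.3%) were higher and 48 (12.2%) lower, a smaller lean. Nuclear shares were not computed for the thinned library or for 500 bp bins, so these values have no background beside them. In 1 kb bins at full depth the share of higher bins ranged from 4.28% to 10.2% on the other 15 chromosomes. That of lower bins ranged from 5.70% to 10.4%. By these shares chromosome 1 stood first for higher bins and last for lower bins. Chromosome 3, whose share of higher bins was the next largest, had 31 higher bins (10.2%) and 26 lower bins (8.52%) among 305.

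The spread of the ratio between bins was also the widest of the 16. The SD of the log2 ratio over bins was 0.76 on chromosome 1, against 0.65 to 0.73 on the other 15. Counting error alone accounts for an SD of 0.20 there, and the excess over it was 0.73, against 0.62 to 0.71 elsewhere. Neighbouring bins resembled each other: across 192 pairs of adjoining bins the correlation of the log2 ratio was 0.54. It was 0.28 at a distance of 2 kb, 0.13 at 3 kb and 0.033 at 4 kb. Among the other chromosomes the adjoining-bin value had a median of 0.35 and reached 0.54 on the highest, so chromosome 1 stood second. These correlations are across bins of the same pair of libraries and are a description.

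The variation came mainly with the starvation library. Over the usable bins of chromosome 1, starvation tags per bin spanned 37.8 to 193 between the 10th and the 90th percentile, around a median of 76. High phosphate tags spanned 137 to 290 around a median of 222. The coefficient of variation was 0.67 in starvation and 0.36 in high phosphate. Both were the largest of the 16 chromosomes, the other 15 reaching 0.62 in starvation and 0.29 in high phosphate. The high phosphate value takes in the fullest bins of that library on chromosome 1, from 190001 to 192000, with up to 760 tags. Its rank without them was not tested. Across bins of chromosome 1 the log2 ratio followed the starvation density, with a Spearman's rho of 0.77, which was the lowest of the 16, the others reaching 0.79 to 0.90. With the high phosphate density, rho was -0.018. A ratio shares its numerator with the first of these measures, so that correlation is partly built in. The 2 densities had a rho of 0.52, the highest of the 16, where the other chromosomes ranged from 0.30 to 0.49.

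**Figure D2:**
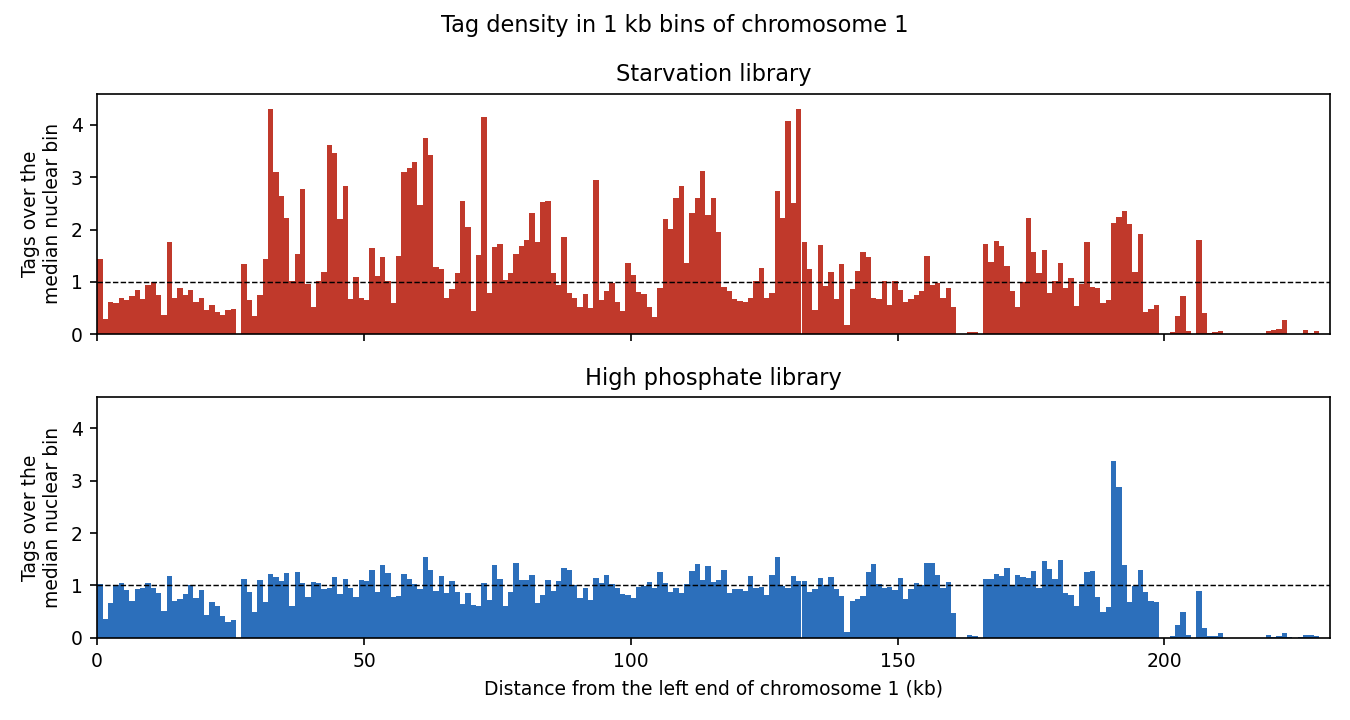
Tags per 1 kb bin along chromosome 1, divided by the median usable nuclear bin (74 tags in starvation, 225 in high phosphate), against distance from the left end in kb. Starvation (upper panel) climbs to 4.30 times its median bin in separate blocks, while high phosphate (lower panel) varies less around 1, with stretches almost without tags, low bins such as those from 20001 to 26000 at 0.30 to 0.69, and a peak of 3.38.

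Higher bins formed blocks in the left and middle part of the chromosome. Of the 29 higher bins, 27 lay between 32001 and 132000, and the others began at 193001 and 222001. The last of these rests on 20 tags in each library. The widest block, from 57001 to 63000, held 1421 starvation tags and 1606 high phosphate tags, a log2 ratio of 1.20 (1.10 to 1.30). In starvation this block stood at 3.20 times the median bin and in high phosphate at 1.19 times. The block from 43001 to 47000 held 896 starvation tags and 919 high phosphate tags, a log2 ratio of 1.34 (1.20 to 1.47). From 32001 to 35000 there were 743 and 781 tags in starvation and high phosphate, a log2 ratio of 1.30 (1.16 to 1.45). Over the 3 blocks the high phosphate density was 1.02 to 1.19 times its median bin, and the starvation density 3.03 to 3.35 times its own.

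Runs of at least 3 neighbouring higher bins were about as frequent per bin on chromosome 1 as on chromosomes 10 and 3, and more frequent than on the rest. Chromosome 1 had these 3 runs in 199 usable bins, or 1.51 per 100 bins, and the other 15 chromosomes had 53 runs, or 0.47 per 100. Chromosome 10 had 10 runs, or 1.42 per 100, and chromosome 3 had 4, or 1.31 per 100, so the order of these chromosomes rests on few runs. The 3 runs held 44.8% of the higher bins of chromosome 1, where runs held 67.7% on chromosome 3, 57.9% on chromosome 10 and 24.8% over the other 15 together. A run on another chromosome reached 7 kb. No run of 3 lower bins occurred on chromosome 1, nor on chromosomes 5, 6, 9 and 10, and the other 15 together had 0.18 per 100 bins. Its longest lower run was 2 kb, from 103001 to 105000, where 63 starvation tags faced 454 high phosphate tags (log2 ratio -1.47, -1.88 to -1.09).

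Bins with the strongest rises, in order of how far their interval stood from 0, lay between 32001 and 132000. The first was 129001 to 130000, with 302 starvation tags and 216 high phosphate tags, a log2 ratio of 1.86 (1.60 to 2.12). The bin from 131001 to 132000 had 318 and 245 tags in starvation and high phosphate, a log2 ratio of 1.75 (1.51 to 1.998). Between them the bin from 130001 had 186 starvation tags and 266 high phosphate tags, and its log2 ratio of 0.86 kept it under 2-fold. Next came 72001 to 73000, with 307 starvation tags and 236 high phosphate tags (log2 ratio 1.76), and 68001 to 69000, with 188 and 145 (1.75). The remaining 6 of the 10 began at 32001, 43001, 44001, 59001, 83001 and 109001. The 10 bins were 2.53 to 3.63 times higher in starvation. They stood at 2.53 to 4.30 times the median bin in starvation and at 0.64 to 1.22 times in high phosphate. Of the 17 other bins that adjoined them, 16 were above 0 as well, where 48.2% of all usable bins of the chromosome were. That share also takes in the parts outside 32001 to 132000, and some of the 17 were themselves past 2-fold higher.

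The strongest falls were smaller and more scattered. The first was 104001 to 105000, with 24 starvation tags and 215 high phosphate tags, a log2 ratio of -1.79 (-2.46 to -1.18). It was followed by 172001 to 173000, with 39 and 271 tags in starvation and high phosphate (-1.42), and 145001 to 146000, with 52 and 319 (-1.24). The others began at 40001, 98001, 103001, 122001, 134001, 190001 and 196001. Of the 10, 8 were past 2-fold. Of the 18 other bins that adjoined them, 12 were below 0, where 103 of all 199 usable bins of the chromosome were not above 0. Apart from 190001, these bins stood at 0.32 to 0.70 of the median bin in starvation and at 0.84 to 1.42 times in high phosphate, the highest of these at 145001. The lowest, at 104001, stood at 0.32 of the median bin in starvation and at 0.96 in high phosphate.

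**Figure D3:**
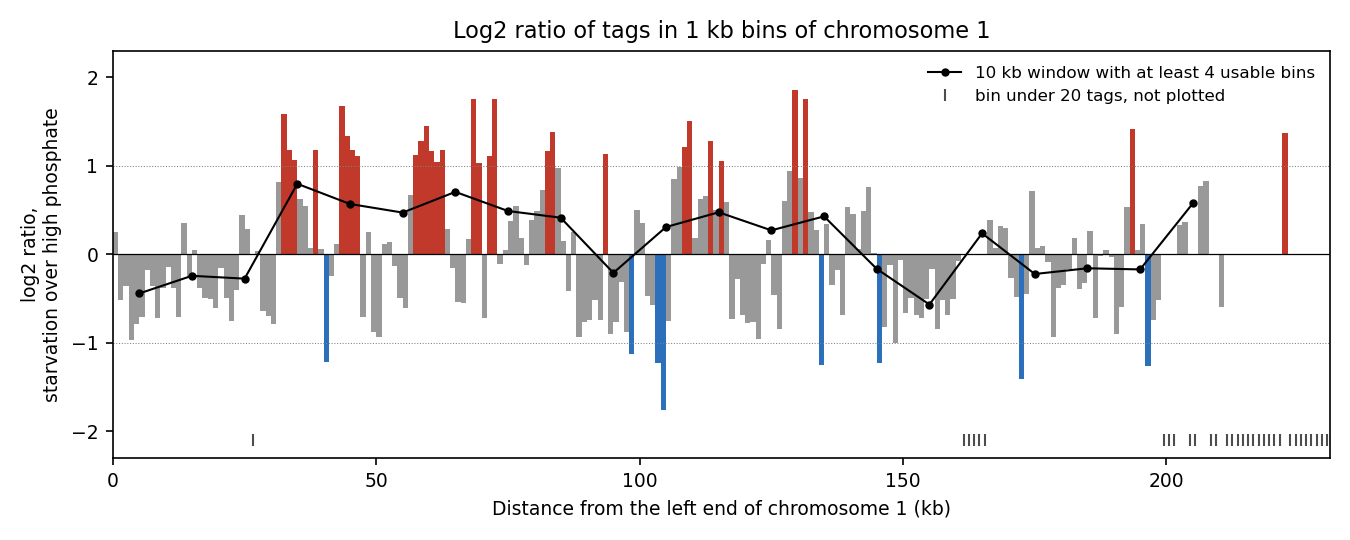
Log2 ratio of starvation over high phosphate in each usable 1 kb bin of chromosome 1 (bars; red at least 2-fold higher, blue at least 2-fold lower, grey between) and in 10 kb windows (black), against distance from the left end in kb. Of the 29 red bins 27 lie between 32 and 132 kb; ticks at the bottom mark the 32 bins under 20 tags, most of them at the right end.

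In 10 kb windows the chromosome fell into a low left end, a high middle and a mixed right part. The 3 windows up to 30000 had log2 ratios of -0.44, -0.24 and -0.28. From 30001 to 140000, 10 of 11 windows were above 0, led by 30001 to 40000 at 0.80 (0.70 to 0.89) from 1535 starvation tags and 2293 high phosphate tags. The exception, 90001 to 100000, had -0.21 (-0.33 to -0.087). From 150001 to 160000 there were 640 starvation tags and 2461 high phosphate tags, a log2 ratio of -0.57 (-0.70 to -0.44), and 0 of its 10 bins was above 0. Further right, windows with at least 9 usable bins lay between -0.22 and -0.16. The windows from 160001 and from 200001 were above 0, at 0.24 and 0.57, with 5 and 4 usable bins. The window from 210001 had -0.45 (-1.71 to 0.65) and that from 220001 had 0.84 (0.28 to 1.39), each from 1 usable bin.

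The contrast between the sides of the midpoint was larger than on any other chromosome. Left of the midpoint of its tagged span, chromosome 1 held 12140 starvation tags and 24551 high phosphate tags, a log2 ratio of 0.36 (0.33 to 0.39). Right of it there were 7533 and 19654 tags in starvation and high phosphate, a log2 ratio of -0.0079 (-0.046 to 0.031). The difference, left minus right, was 0.37 on chromosome 1. On the other 15 chromosomes its size ranged from 0.00097 to 0.097, with a median of 0.032. A side of chromosome 1 is shorter than a side of any other chromosome, so it averages over fewer bins. Chromosome 6, the second shortest, had 132 usable bins left and 131 right of its midpoint, and a difference of -0.032. Whether length bears on the contrast was not tested. Left of the midpoint 24 of 114 usable bins were past 2-fold higher and 4 lower. On the right there were 5 higher bins and 4 lower bins among 85. Over all 16 chromosomes 747 of 11560 usable bins (6.46%) were past 2-fold higher and 1020 (8.82%) lower.

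The ends of chromosome 1 differed from each other. The left 20 kb held 1173 starvation tags and 3858 high phosphate tags, a log2 ratio of -0.34 (-0.44 to -0.25). The interior, beyond 20 kb from either end, held 18443 and 40246 tags in starvation and high phosphate, a log2 ratio of 0.25 (0.22 to 0.28). The left end was therefore lower than the interior by a log2 difference of -0.59 (-0.69 to -0.49), the lowest difference of the 16 left ends. The other 15 ranged from -0.52 to 0.25. The ratio of the left end itself ranked 5 from the lowest among the 32 ends, the lowest being -0.46 on the left of chromosome 2, while the interior ratio was the highest of the 16. With ends of 10 kb the left-end difference ranked 3 from the lowest, at -0.68. The right 20 kb held just 57 starvation tags and 101 high phosphate tags, fewer than any other of the 32 chromosome ends, whose median was 1114 starvation tags. Its log2 ratio was 0.55 (0.056 to 1.03), and its difference from the interior, 0.30 (-0.17 to 0.77), could not be told from 0 at this width and depth. At the other widths it lay above 0. It was 0.59 (0.066 to 1.11) in the right 10 kb, from 49 starvation tags and 72 high phosphate tags, and 0.31 (0.11 to 0.51) in the right 30 kb, from 314 and 549 tags in starvation and high phosphate. At each of the 3 widths it was the highest of the 16 right ends, but the widths are nested. Along this end the log2 ratio was -0.13 (-1.17 to 0.81) within 5 kb and 1.42 (0.70 to 2.13) at 5 to 10 kb. At 10 to 20 kb it was -0.48 (-1.82 to 0.68). With both ends together the difference was -0.56 (-0.66 to -0.47), a value that rests on the left end. It was the lowest of the 16, the other 15 ranging from -0.52 to 0.17, and with ends of 30 kb chromosome 1 was second lowest.

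The fall at the left end did not include the outermost bin. The bin from 1 to 1000 held 106 starvation tags and 232 high phosphate tags, a log2 ratio of 0.25 whose interval included 0 (-0.10 to 0.58). The following 12 bins, up to 13000, were each below 0, at their lowest from 3001 to 4000 with 44 starvation tags and 225 high phosphate tags. None of them was past 2-fold, and the intervals of several of them included 0. Over all nuclear chromosomes, 6993 of 11560 usable bins were not above 0. At the other end the outermost bin held 0 starvation tags and 1 high phosphate tag.

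Tag-free sequence was more extensive on chromosome 1 than elsewhere. Stretches of more than 400 bp without a tag in either library numbered 22 and covered 13.9% of the tagged span, against 0.27% to 7.88% on the other 15 chromosomes. Of these stretches 20 lay right of the midpoint, and the longest, from 210498 to 219242, was 8745 bp. Another pair, from 160252 to 164021 and from 164057 to 166164, lay further inside. Only tags with a unique placement are listed in the files, so sequence present in several copies is left out. What share of the tag-free stretches is of that kind was not tested. Outside these stretches chromosome 1 held 99.3 starvation tags per kb, the most of the 16 chromosomes, where the others had 80.6 to 98.6. In high phosphate it held 223 tags per kb and stood 13th.

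Set against the same distance from an end on other chromosomes, the interior of chromosome 1 was high at some distances and unremarkable at others. At 30 to 50 kb from the nearer end it had 4518 starvation tags and 9485 high phosphate tags, a log2 ratio of 0.31 (0.25 to 0.36). That was above the other 15 chromosomes, which ranged from -0.22 to 0.26. At 50 to 100 kb its log2 ratio of 0.20 was the sixth of 16, below the 0.52 of chromosome 3. At 100 to 115 kb, the middle of chromosome 1, it was 0.36 (0.30 to 0.42) and second to the 0.47 of chromosome 3. The other 15 had a median of 0.11 at that distance. Closer to the ends, at 10 to 20 kb, its log2 ratio of -0.25 was the 14th of 16. At 5 to 10 kb it was -0.37 (-0.56 to -0.19), 9th of the 14 chromosomes with at least 500 tags there. Within 5 kb it was -0.38 (-0.57 to -0.18), 11th of the 13 chromosomes with at least 500 tags there. Nearly all tags of chromosome 1 within 20 kb of an end came from the left end.

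The sides of chromosome 1 differed at matched distance too. At 30 to 50 kb from the left end the log2 ratio was 0.69 (0.62 to 0.75), from 2820 starvation tags and 4548 high phosphate tags. At the same distance from the right end it was -0.16 (-0.24 to -0.084), from 1698 starvation tags and 4937 high phosphate tags. At 50 to 100 kb the values were 0.41 on the left and -0.062 on the right. The high ratio at 30 to 50 kb thus came from the left side.

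**Figure D4:**
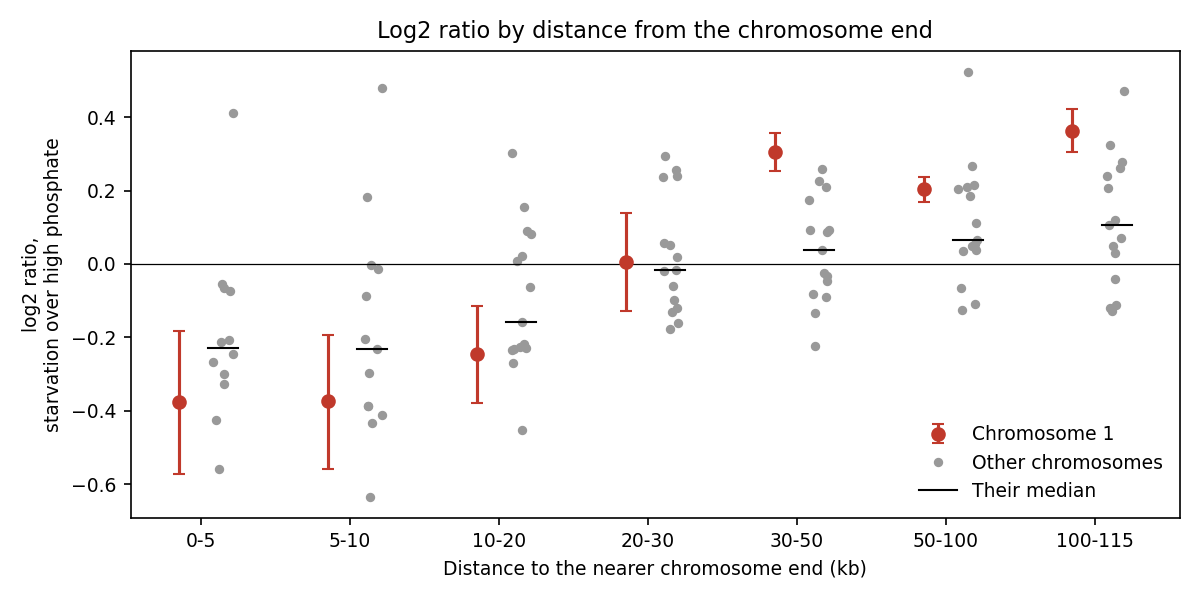
Log2 ratio of starvation over high phosphate by distance to the nearer chromosome end, for chromosome 1 (red, with the 95% exact interval for counting error) and for each other chromosome with at least 500 tags in the class (grey; black bar, their median). Chromosome 1 lies below the median of the others within 20 kb, where nearly all its tags come from the left end. It lies above the other 15 at 30 to 50 kb.

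A stretch of about 2 kb stood out in both libraries, and more so in high phosphate. The bins from 190001 and 191001 held 760 and 650 high phosphate tags, 3.38 and 2.89 times the median bin. Among the 12041 nuclear bins of that library they ranked 2 and 3. In starvation they held 157 and 166 tags, 2.12 and 2.24 times the median bin, with log2 ratios of -0.90 and -0.59. Of the 2000 positions and strands of the bin from 190001, high phosphate tags filled 38.0% and starvation tags 7.85%. Each position and strand is listed once at most, which limits full bins more in the deeper library. Corrected for filled positions, the bin from 190001 had a log2 ratio of -1.25. Tags on the plus strand made up 45.9% in starvation and 53.2% in high phosphate. Without these bins the log2 ratio of the chromosome was 0.23.

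The sequenced fragments of chromosome 1 were longer in starvation, as on every chromosome. The offset between strands, the distance from plus-strand to minus-strand tags at which pairs are most frequent, was 157 bp for the starvation library and 142 bp for the high phosphate library. The other 15 chromosomes ranged from 153 to 156 bp in starvation, and from 139 to 146 bp in high phosphate. The starvation offset of chromosome 1 was the longest of the 16, by 1 bp over the next, and was 156 bp with a wider running mean. The difference of 15 bp was second among the chromosomes, whose other values ran from 9 to 16 bp. Within chromosome 1 the starvation offset was 155 to 162 bp in 5 windows of 40 kb between 1 and 200000, and the high phosphate offset 141 to 147 bp. Starvation was longer in 5 of 5 windows. In the 29 higher bins the offset was 157 bp for starvation and 141 bp for high phosphate. In the remaining usable bins it was 155 bp and 142 bp in starvation and high phosphate, within a few bp of the higher bins. In the left 20 kb it was 154 bp for starvation and 149 bp for high phosphate, from 1173 and 3856 tags.

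Regular arrays were present on chromosome 1 in both libraries. Distances between moved tags had their first peak at 165 bp for starvation and at 169 bp for high phosphate. The fifth came at 806 bp for starvation and at 817 bp for high phosphate. The repeat, the slope over these 5 peaks and thus the spacing from one nucleosome to the next, was 159.8 bp with starvation, against 162.8 bp with high phosphate. The difference of -3 bp lay within the range of the other 15 chromosomes, -3.6 to 4.6 bp. From the first 3 peaks the repeat was 164 bp with starvation, against 165.5 bp with high phosphate, so a difference of a few bp is not resolved at this depth.

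The array peaks of chromosome 1 stood higher than those of the other chromosomes in starvation. The first peak reached 1.73 times the level of pairs 2000 to 3000 bp apart in starvation, where the other 15 chromosomes had 1.47 to 1.68. In high phosphate it reached 1.33 times, where the others had 1.21 to 1.28. Each of the next 4 peaks was also the highest of the 16 in both libraries. The second stood at 1.53 in starvation, where the other chromosomes reached 1.42, and at 1.26 in high phosphate, where they reached 1.18. Measured this way, a height also takes in unevenness of density over a few kb. The coefficient of variation over 1 kb bins was largest on chromosome 1 with all usable bins kept. Over the trough that follows it, the first peak was 1.90 in starvation, again the highest, with the others between 1.56 and 1.81. In high phosphate it was 1.37 over the trough and stood 7th, with the others between 1.33 and 1.40. With the 2 bins fullest in high phosphate left out on every chromosome, which on chromosome 1 are those from 190001 to 192000, it was 1.43 over the trough and stood first, with the others between 1.34 and 1.41. With tags corrected for filled positions, chromosome 1 was second of 16 over the distant level in each library, at 1.85 in starvation and 1.41 in high phosphate.

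Arrays were clear both left and right of the midpoint. Over the trough, the first peak stood at 1.95 in starvation and 1.41 in high phosphate on the left, and at 1.82 in starvation and 1.35 in high phosphate on the right. By this measure the left side, which held most of the higher bins, had the taller peak in both libraries. Over the distant level it was taller in starvation, at 1.81 left and 1.73 right, and lower in high phosphate, at 1.27 left and 1.46 right, where the right side holds the dense stretch from 190001. Among the 40 kb windows the tallest starvation peak over the trough, 2.07, was from 40001 to 80000, where high phosphate had 1.51. The lowest, 1.64, was from 1 to 40000, where high phosphate had 1.29. Starvation was higher in 5 of 5 windows.

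**Figure D5:**
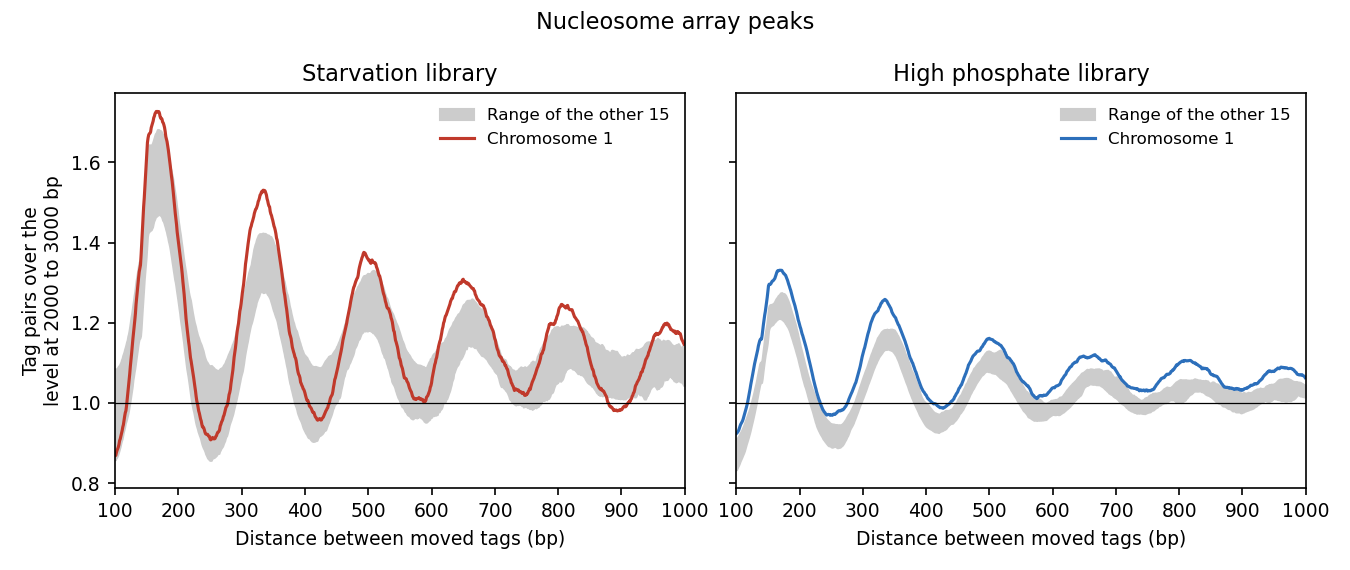
Pairs of moved tags at each distance, divided by the mean at 2000 to 3000 bp, for chromosome 1 (line) and the range of the other 15 chromosomes (grey), in starvation (left panel) and high phosphate (right panel). The first peak of chromosome 1 reaches 1.73 in starvation and 1.33 in high phosphate, above the grey range in both, and in high phosphate its troughs lie above or at the top of the range as well.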

How the data were processed

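Mononucleosomal DNA of 1 library per condition was read on an Illumina Genome Analyzer with no immunoprecipitation, and tags were placed on sacCer1, per the labels' protocols. The aligner is not given in the sources used here. Per deposited row, the files give the chromosome, position and strand of 1 uniquely placed tag, with no level. Each position and strand occurs once (0 repeated rows), which compresses dense bins, more so in the deeper library. Positions were used as deposited, counted from 1.

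Groups came from the sample titles. Bin ratios used a pseudocount of 0.5 for calls, medians and SDs, and none where an interval (Clopper-Pearson) is given. Differences of ends and interior carry a 95% interval of the odds ratio. The offset was sought at 80 to 250 bp and each array peak 120 to 220 bp beyond the last, after an 11 bp running mean. Named bins are the 10 strongest rises and falls by the interval bound nearest to 0, all runs of at least 3 bins past 2-fold, and the outermost bins. The region and measures were chosen with earlier results of these data known. Scripts ran in Python 3.11.15 with NumPy 2.4.6 and SciPy 1.17.1 and were tested on simulated data. Alternatives were other scalings, bin sizes, end widths, unmoved tags, a thinned high phosphate library and a correction for filled positions.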

Additional observations from a re-analysis of the deposited data

How the results depend on the processing

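No paired analysis was possible because there was 1 library on each side, and no replicate could be left out. Of 72 alternatives for the 11 main measures, 46 stayed within the limit used for them. That limit was an interval or the spread over chromosomes. For counts of bins it was a fixed ratio between the counts, whatever the number of bins tested. Another 24 moved outside their limit, and 2 changed sign: the median bin of chromosome 1 and its right end alone. With the median 10 kb bin set to 0 the log2 ratio of chromosome 1 was 0.27, and its median bin was -0.079 under nuclear scaling. At bin widths of 500 bp, 2 kb and 5 kb the SD over bins was 0.87, 0.68 and 0.55. Bins at least 2-fold higher numbered 64 (16.3%), 13 (12.4%) and 2 (4.44%) at these widths. The SD was 0.82 after correction for filled positions. Lower bins numbered 48 (12.2%), 2 (1.90%) and 0 at these widths, and 13 (6.60%) with the high phosphate library thinned. Nuclear shares were not computed at these settings. Finer bins change the number tested as well. The right end alone turned the difference from the interior to 0.30. The offset was 156 bp in starvation with a 21 bp running mean, and 144 bp or 145 bp in high phosphate with means of 5 or 21 bp. The repeat from 3 peaks was 164 bp (starvation) and 165.5 bp (high phosphate). For high phosphate it was 160.4 bp without the ends and 157.8 bp after thinning. First peaks were 1.85 in starvation and 1.41 in high phosphate after the filling correction, and 1.90 and 1.37 over the trough. Without 190001 to 192000 the high phosphate peak was 1.29. The cause of these shifts was not tested. The trough, the left-out stretch, single ends and the median bin were chosen after seeing the data. The 20 named bins had the same sign under each of 5 alternatives, and 2 left their interval, with the filling correction. These bins were chosen from the same tags for intervals far from 0, so the unchanged sign was largely built in. The right end holds few tags at each width, so its intervals are wide.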
